A study of Mus musculus with 61 samples.

Results

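The 7 genes described here are the MHC class II genes H2-Aa, H2-Ab1, H2-Eb1, H2-DMa and H2-DMb1, together with Cd74 and Ciita. They were taken by symbol from a gene count table of 55011 genes, and all 7 were present. Their levels were followed over 61 whole-muscle RNA-seq libraries of mouse skeletal muscle in 22 groups. The study asked how regulatory T cells (Tregs, which express Foxp3) and interferon-gamma shape the muscle's response to exercise.

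The wild-type groups were C57BL/6J mice, sedentary or 1, 2 or 7 days after acute exercise, with 3 quadriceps and 3 tibialis anterior libraries in each. An acute experiment used quadriceps of Foxp3-IRES-GFP.hDTR mice, in which cells that express Foxp3 carry the human diphtheria toxin receptor and are killed by diphtheria toxin (DT). It held sedentary mice (2 DTR+ and 3 DTR- libraries), mice at day 1 (3 and 3) and mice at day 7 of recovery (2 and 2). A training experiment held quadriceps of sedentary DTR+ and DTR- mice and of mice trained for 2 weeks, with 3 libraries per group. In both experiments the DTR- controls, which lack the receptor, received DT as well. An antibody experiment compared trained, DT-treated DTR+ mice given IgG or a neutralizing antibody to interferon-gamma (anti-IFN-gamma; quadriceps, 3 and 3). The last experiment compared 24-month-old resting C57BL/6JN mice given IgG or anti-IFN-gamma (2 and 2). The labels name no muscle for the aged libraries and no age for the others. They number the samples without saying more about the replicates, so p-values measure the spread between these samples.

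MHC class II molecules present peptides taken up from outside the cell to CD4+ T cells, and are carried mainly by dendritic cells, macrophages and B cells. H2-Aa and H2-Ab1 encode the alpha and beta chains of the I-A molecule, and H2-Eb1 the beta chain of I-E, whose alpha-chain gene is silent in C57BL/6 mice. Cd74 is the invariant chain that escorts new class II molecules to endosomes, and the H2-DMa and H2-DMb1 proteins then exchange its remnant for peptide. Ciita is the co-activator that switches these genes on. It is induced by interferon-gamma, in part through Irf1, and it acts on promoters through factors bound to the X box (the RFX complex) and the Y box (NF-Y).

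RefSeq promoter windows on build GRCm38.p6, from 250 bases before to 50 bases after a start site, were matched for H2-Aa, H2-Eb1, H2-DMb1 and H2-DMa. Of them, 2 are shown because the classical class II genes moved together in the comparisons that follow. The capitals mark the Y box letters ATTGG and, where it is present, an X core written AGNNACNGA, each searched on both strands without overlap between them. Each line gives 100 bases, 5′ to 3′ on the gene's strand, at chr17:34305728-34305827 on the plus strand for H2-Eb1 and chr17:34287852-34287951 on the minus strand for H2-Aa.
H2-Eb1: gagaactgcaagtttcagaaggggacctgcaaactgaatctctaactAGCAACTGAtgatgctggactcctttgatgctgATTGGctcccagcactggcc
H2-Aa: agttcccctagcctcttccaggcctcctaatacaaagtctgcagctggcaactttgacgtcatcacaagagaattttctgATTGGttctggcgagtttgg
In H2-Eb1 the X core began at -92 and the Y box at -59 relative to the start site, with 24 bases between them. H2-DMb1 held the same arrangement at -95 and -61, with 25 bases between. In H2-Aa the Y box began at -48 and no AGNNACNGA was found. The H2-DMa window at 34122582-34122881 held neither motif, and that at 34125268-34125567 held a Y box without an X core. The related class II genes H2-Oa, H2-Ob and H2-DMb2 did not hold the arrangement either. Of 32851 promoter windows, 37.4% held ATTGG, 17.7% held the X core, and 0.326% (107 windows) held an X core followed on the same strand by ATTGG 8 to 35 bases later. These matches describe letters and not bound sites, and no window of H2-Ab1, Cd74 or Ciita was examined.

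On build GRCm38 with GENCODE vM21, 5 of the 7 genes lie in the MHC region of chromosome 17, at 34282744-34287823 (H2-Aa), 34257689-34269419 (H2-Ab1), 34305867-34316674 (H2-Eb1), 34119541-34139101 (H2-DMa) and 34153072-34160230 (H2-DMb1). Cd74 lies on chromosome 18 at 60803848-60812652 and Ciita on chromosome 16 at 10480059-10528418. Levels are library-scaled counts (CPM, the gene's count relative to the library's total), and levels are compared between genes only per kilobase of exon. On that scale Cd74 had the highest median, 29.9 CPM per kb over the 61 libraries, ahead of H2-Ab1 (26.3), H2-Eb1 (12.6) and H2-Aa (8.76). This order depends on the annotation, because the length counts every annotated exon of a gene. It was 3798 bases for H2-Aa, 2568 for H2-Ab1, 1944 for H2-Eb1 and 1679 for Cd74. Before division by length the medians were 67.5 CPM for H2-Ab1, 50.3 for Cd74, 33.3 for H2-Aa and 24.5 for H2-Eb1. The peptide-exchange genes H2-DMa (1.77 CPM per kb) and H2-DMb1 (1.68 CPM per kb) were lower, and Ciita was lowest (0.339 CPM per kb). The median Ciita library held 22 counts and the median H2-DMb1 library 23, so both are imprecise in single libraries. H2-Ea, the silent I-E alpha chain, never exceeded 2 counts and was at 0 in 57 libraries. Reads shared between the near-identical copies H2-DMb1 and H2-DMb2 could not be assigned with certainty. The same holds for any read that H2-Eb1 shares with the related H2-Eb2, which never exceeded 7 counts and was at 0 in 49 libraries. In whole muscle, fewer cells that carry class II and less class II RNA per cell cannot be told apart.

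Library totals ran from 3359683 to 14445336 counts, and genes of the muscle fibre, such as Acta1 and Ckm, summed to between 68670 and 197100 CPM. Foxp3 was too low to check the depletion by level: it had a count in 3 of 19 DTR+ libraries and in 7 of 14 DTR- libraries, with at most 9 counts. Libraries of the acute experiment stood apart by group. Mitochondrially encoded genes took 20.0% to 23.5% of counts in the 4 DTR+ libraries of sedentary and day 7 mice, 7.89% to 12% in the 5 such DTR- libraries, and 5.44% to 6.56% in the 6 day 1 libraries. The scaling factors of the test (TMM, a trimmed mean of ratios between libraries) followed the same split, at 0.778 to 0.855, 0.942 to 1.06 and 1.09 to 1.20. In the other experiments, the aged one apart, they ran from 0.865 to 1.06. Scaling by total counts in place of TMM moved the median log2 fold change of all genes from 0.28 to 0.81 for DTR+ day 1 against rest, from 0.09 to 0.34 for DTR- day 1, from -0.06 to -0.36 for genotype at rest and from -0.10 to -0.39 for genotype at day 7. The share of higher genes among those called moved in the same order from 57.3% to 79.4%, 49.8% to 81.6%, 45.4% to 22.2% and 44.7% to 25.3%, and the acute day 1 results are therefore given under both scalings.

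For the H2 genes, the order of the 22 group means was led by acute DTR+ mice at day 7 and, next, trained DTR+ mice. Acute DTR+ mice at day 1 stood only at place 13 for H2-Aa, 14 for H2-Ab1 and 16 for H2-Eb1. Resting aged mice given IgG stood at place 3 for H2-Aa. H2-Ab1 averaged 395 ± 164 CPM (SD, n = 2) in acute DTR+ mice at day 7, then 211 ± 69.8 CPM (SD, n = 3) in trained DTR+ mice and 192 ± 2.04 CPM (SD, n = 3) in trained DTR+ mice given IgG. At the other end stood wild-type tibialis anterior at day 1, with 17.8 ± 1.93 CPM (SD, n = 3), 22.1 times below the top. H2-Aa (16.8-fold) and H2-Eb1 (15.3-fold) had the same groups at the top and at the bottom, as did H2-DMb1, for which no fold is given because the lowest group held 3, 4 and 1 counts. H2-DMa spanned 9.78-fold, with acute DTR+ day 7 mice highest and wild-type tibialis anterior at day 7 lowest. Cd74 and Ciita were both highest in trained DTR+ mice, at 145 ± 22.8 and 11.6 ± 3.42 CPM (SD, n = 3), and lowest in sedentary acute DTR+ mice, at 12.6 ± 4.21 and 0.555 ± 0.786 CPM (SD, n = 2). Neighbouring groups seldom separated: of 21 neighbouring pairs, the libraries overlapped in 21 for H2-Eb1, in 20 for H2-DMa, H2-DMb1 and Ciita, in 19 for Cd74 and in 18 for H2-Aa and H2-Ab1. Between experiments this order is a description only.

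After acute exercise in wild-type mice, H2-Ab1 fell at day 1 in the tibialis anterior, the muscle of the shin. The means of H2-Aa, H2-Ab1, H2-Eb1 and Cd74 were lowest at day 1 in both muscles, which did not hold for H2-DMa and Ciita in either muscle or for H2-DMb1 in quadriceps. In its resting libraries H2-Ab1 stood at 26.0, 53.7 and 53.3 CPM, and at day 1 at 19.4, 15.7 and 18.4 CPM. All 3 day 1 libraries lay below the lowest resting library. The log2 fold change was -1.27 ± 0.22 (SE; edgeR quasi-likelihood test, adjusted p = 0.0477). It was 1 called member of the 7, where 0.0473% of 12692 genes were called lower.

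The partner chain H2-Aa stood at 23.3, 22.9 and 24.0 CPM at rest and at 12.1, 8.84 and 11.1 CPM at day 1. Its libraries did not overlap either, and its log2 fold change of -1.09 ± 0.22 missed the threshold (adjusted p = 0.0729). Cd74 stood at 38.9, 43.8 and 42.0 CPM at rest and at 21.9, 24.6 and 27.8 CPM at day 1, again without overlap (log2 -0.71 ± 0.19, adjusted p = 0.227). H2-Eb1, the I-E beta chain, was at 10.4, 15.2 and 20.6 CPM at rest and at 7.81, 4.21 and 11.5 CPM at day 1, where the groups overlapped (-0.92 ± 0.34, adjusted p = 0.457). H2-DMa and H2-DMb1 were lower on average, and Ciita alone of the 7 was higher on average, at 1.28, 3.29 and 2.15 CPM against 5.54, 2.81 and 1.48 CPM at day 1. The median log2 fold change of the 7 was -0.92, beside -0.0008 for all genes tested.

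The summed macrophage and monocyte markers were also lower at day 1, without a called marker. All 12 listed summed to 99.03 to 126.9 CPM at rest and 76.9 to 93.0 CPM at day 1, and 0 of the 10 tested were called. The 9 dendritic cell markers summed to 12.03 to 21.52 CPM at rest and 19.62 to 27.97 CPM at day 1. Over all 61 libraries Zbtb46 had the largest median of them (12.4 CPM), then Cd209a (3.22 CPM), and the others had at most 0.556 CPM. The 7 B cell markers, nearly all of it Ighm, summed to 40.53 to 85.22 CPM at rest and 54.29 to 67.29 CPM at day 1. The part of these cells in the result was not tested. The call for H2-Ab1 was lost with RLE scaling (adjusted p = 0.0509), with the length and GC trend removed (0.0727), in a fit of only the compared groups (0.0978), and without any of the day 1 libraries 16, 17 or 19 or the resting libraries 06 or 07 (0.115 to 0.240). The log2 fold change stayed between -1.09 and -1.33 in these leave-one-out fits.

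**Figure D1:**
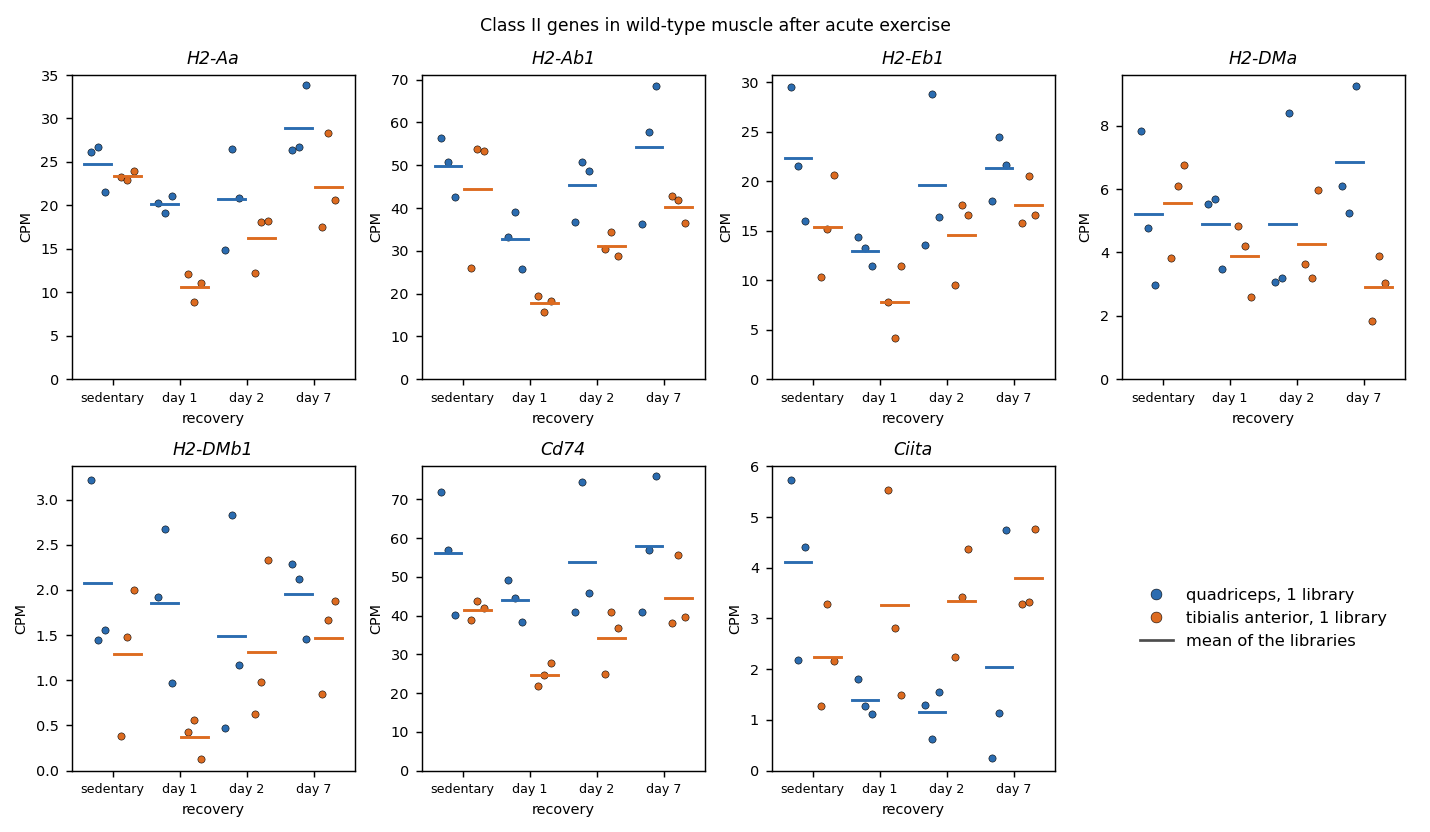
Level of each of the 7 genes in CPM (y axis) in every wild-type library by recovery time (x axis), for quadriceps (blue) and tibialis anterior (orange). Points are libraries and bars are means of 3. H2-Aa, H2-Ab1 and Cd74 in tibialis anterior at day 1 lie below all resting libraries of that muscle, and Ciita does not follow them.

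Later in recovery none of the 7 was called in the tibialis anterior. H2-Ab1 stood at 30.4, 34.3 and 28.8 CPM at day 2 and at 42.8, 41.8 and 36.4 CPM at day 7. H2-Aa stood at 12.2, 18.1 and 18.2 CPM at day 2, still below all resting libraries (log2 -0.50 ± 0.21, adjusted p = 0.599), and at 17.5, 28.3 and 20.7 CPM at day 7, where the groups overlapped. By edgeR 0.063% of 12692 genes were called in either direction at day 2 and 0.0158% at day 7. Of the members, 2 had an unadjusted p under 0.05 at day 2 and 0 at day 7, and DESeq2 called 0 at both.

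In quadriceps, the large thigh muscle, the same genes were lower on average at day 1 without a call. H2-Ab1 stood at 56.4, 50.7 and 42.6 CPM at rest and at 33.2, 39.1 and 25.7 CPM at day 1, with no overlap (log2 -0.59 ± 0.20, adjusted p = 0.343). H2-Eb1 stood at 29.5, 21.6 and 16.0 CPM at rest and at 14.3, 13.2 and 11.4 CPM at day 1, also without overlap (-0.76 ± 0.27, adjusted p = 0.373). Ciita, unlike in tibialis anterior, was below its resting libraries (5.74, 2.17 and 4.41 CPM) at day 1 (1.80, 1.28 and 1.11 CPM) and day 2 (1.30, 0.614 and 1.55 CPM), with a log2 fold change at day 2 of -1.80 ± 0.78 (adjusted p = 0.503). At day 7 it spread from 0.254 to 4.75 CPM. All 7 members had a fold change below 0 at day 1, with a median of -0.33 beside -0.01 for all genes. The day 1 libraries of H2-Aa, H2-Ab1, H2-Eb1 and Ciita did not overlap with rest, but the share of all genes separated likewise was not counted. By edgeR 0 members were called on any day, where 0.582% of 13062 genes were called at day 1, 0.299% at day 2 and 0.214% at day 7. Of the members, 2, 1 and 0 had an unadjusted p under 0.05 on these days, beside 1075, 1171 and 1033 of all genes, and DESeq2 called 0. Macrophage markers in quadriceps summed to 133 to 209 CPM at rest and 172 to 219 CPM at day 1.

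Neither the resting level nor the response of any member was called different between the muscles. At rest 0 members were called between tibialis anterior and quadriceps, where 1.3% of 13819 genes were. The day 1 response of H2-Aa was lower in tibialis anterior by a log2 difference of -0.82 ± 0.29 (adjusted p = 0.796) and that of H2-Ab1 by -0.68 ± 0.32 (adjusted p = 0.904). Ciita leaned the other way at day 1 (2.11 ± 0.93, adjusted p = 0.885) and at day 2 (2.41 ± 0.94, adjusted p = 0.885). For these tests of the difference 0.0434% of 13819 genes were called at day 1, 0.00724% at day 2 and 0.0796% at day 7. The members at an unadjusted p under 0.05 numbered 3, 1 and 1, with 0 at rest, and DESeq2 called 0 in all 4, with no adjusted p for the 7 members at day 1.

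Class II transcripts were higher in mice depleted of Tregs 7 days after acute exercise. H2-Ab1 stood at 279 and 511 CPM in the 2 DTR+ libraries and at 112 and 117 CPM in the 2 DTR- libraries, a log2 fold change of 2.07 ± 0.25 (SE; adjusted p = 9.61e-06). H2-Aa stood at 125 and 233 against 56.0 and 51.4 CPM (2.03 ± 0.29, adjusted p = 3.99e-05). H2-Eb1 stood at 91.7 and 148 against 37.5 and 25.9 CPM (2.22 ± 0.30). Library 3 of the DTR+ mice was the higher of the pair for all 7 members. The peptide-exchange genes rose as well, H2-DMa from 5.93 and 8.25 to 16.4 and 40.7 CPM (2.27 ± 0.42) and H2-DMb1 from 4.83 and 6.13 to 10.6 and 22.9 CPM (1.87 ± 0.53, adjusted p = 0.0125). These 5 of 7 members were called higher, where 11.3% of 14245 genes were, and the members' median was 2.03 beside -0.10 for all genes.

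Cd74 and Ciita were the members not called at day 7. Cd74, the partner of the classical chains, stood at 44.1 and 58.0 CPM in DTR+ and at 31.8 and 54.5 CPM in DTR- mice, which overlap. Ciita stood at 4.005 and 4.289 against 3.074 and 0.7802 CPM, without overlap and with an unadjusted p above 0.05. The call for H2-DMb1 was lost without DTR+ library 3 (adjusted p = 0.190) or DTR- library 1 (0.0979) or 3 (0.0524).

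DTR+ and DTR- libraries at day 7 differ in mitochondrial share as given above, and the DTR+ sedentary libraries share the high value, so the DTR+ mice were also compared with each other. Against sedentary DTR+ mice, H2-Ab1 rose at day 7 from 90.2 and 95.0 CPM (log2 1.97 ± 0.25, adjusted p = 0.000297) and H2-Aa from 32.0 and 36.7 CPM (2.26 ± 0.29). H2-Eb1 rose from 28.8 and 29.3 CPM (1.92 ± 0.30) and H2-DMa from 3.21 and 6.48 CPM (2.43 ± 0.42). Cd74 rose from 15.6 and 9.60 CPM (1.89 ± 0.33, adjusted p = 0.0066). Thus 5 of 7 were called higher, where 0.632% of 14245 genes were. H2-DMb1 (2.08 ± 0.54, adjusted p = 0.0687) and Ciita (2.74 ± 0.93, adjusted p = 0.169) missed the threshold. Ciita had no count in sedentary DTR+ library 3, which allows up to 0.374 CPM. Without that library's partner, library 2, the fitted Ciita fold passed the threshold against a group at 0 and is no measure of size. The 5 calls were lost in a fit of only these 4 libraries (adjusted p from 0.103 to 0.342 with nearly the same folds). H2-DMa lost its call without sedentary DTR+ library 2 (0.0557) or day 7 DTR+ library 3 (0.109), and Cd74 without sedentary DTR+ library 3 (0.0686).

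In DTR- mice, which kept their Tregs, 0 members were called between day 7 and rest, where 0.00702% of 14245 genes were, with 0 members at an unadjusted p under 0.05 and 0 by DESeq2. The difference between the day 7 responses of the 2 genotypes was positive for all 7 members, with a median of 1.81 beside 0.00 for all genes. It reached 1.70 ± 0.34 for H2-Ab1 (adjusted p = 0.0569), 1.73 ± 0.39 for H2-Aa (adjusted p = 0.104), 2.50 ± 0.57 for H2-DMa and 1.81 ± 0.43 for Cd74 (adjusted p = 0.140). By edgeR 0 members passed, where 0.0772% of 14245 genes did, although 6 had an unadjusted p under 0.05 and DESeq2 called 5. Leaving out DTR+ day 7 library 2 gave 5 calls, and leaving out DTR- day 7 library 3 gave 1. The comparisons of day 7 share libraries with each other.

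Of 19 tested genes of the wider class II route 3 were higher and 3 lower at day 7 in DTR+ against DTR- mice, where 1613 of 14245 genes were higher and 1995 lower, among them Ctss, the cathepsin that trims the invariant chain, which rose by a log2 fold change of 2.30 ± 0.49, and the cathepsin Ctsd, which fell (-1.15 ± 0.17). Irf1, which carries the interferon-gamma signal to Ciita, rose by a log2 fold change of 2.51 ± 0.49, while the receptor chain Ifngr2 fell (-1.90 ± 0.21). Of 10 class I genes 8 rose, with Psmb8 of the immunoproteasome at 3.74 ± 0.40 and B2m, the class I light chain, at 2.46 ± 0.35.

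Markers of macrophages and of T and NK cells were also higher in these DTR+ libraries, and those of B cells were lower. The 12 macrophage and monocyte markers summed to 311 and 553 CPM against 223 to 263 CPM, with 6 called higher and 1 lower. The 9 T and NK cell markers summed to 18.9 and 60.2 CPM against 3.90 to 7.25 CPM, with 3 of 5 tested called higher, and DTR+ library 3 was the higher in both lists. The 9 dendritic cell markers summed to 16.1 and 20.3 against 14.9 and 15.4 CPM, with 0 of 6 tested called. Of these, Flt3 was at 0 in both DTR+ libraries and in 37 of all 61, and Itgax stood at 0.668 and 7.15 CPM against at most 1.10 CPM in DTR-. The 7 B cell markers summed to 86.81 and 99.02 CPM against 203.7 and 255.2 CPM, nearly all of it Ighm, which fell (-1.02 ± 0.25, adjusted p = 0.00521). Of the 3 neutrophil markers tested 1, S100a8, fell (-3.44 ± 1.02), and the list summed to 4.12 and 10.0 against 6.91 and 89.8 CPM. The part of these cells in the rise of class II was not tested.

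**Figure D2:**
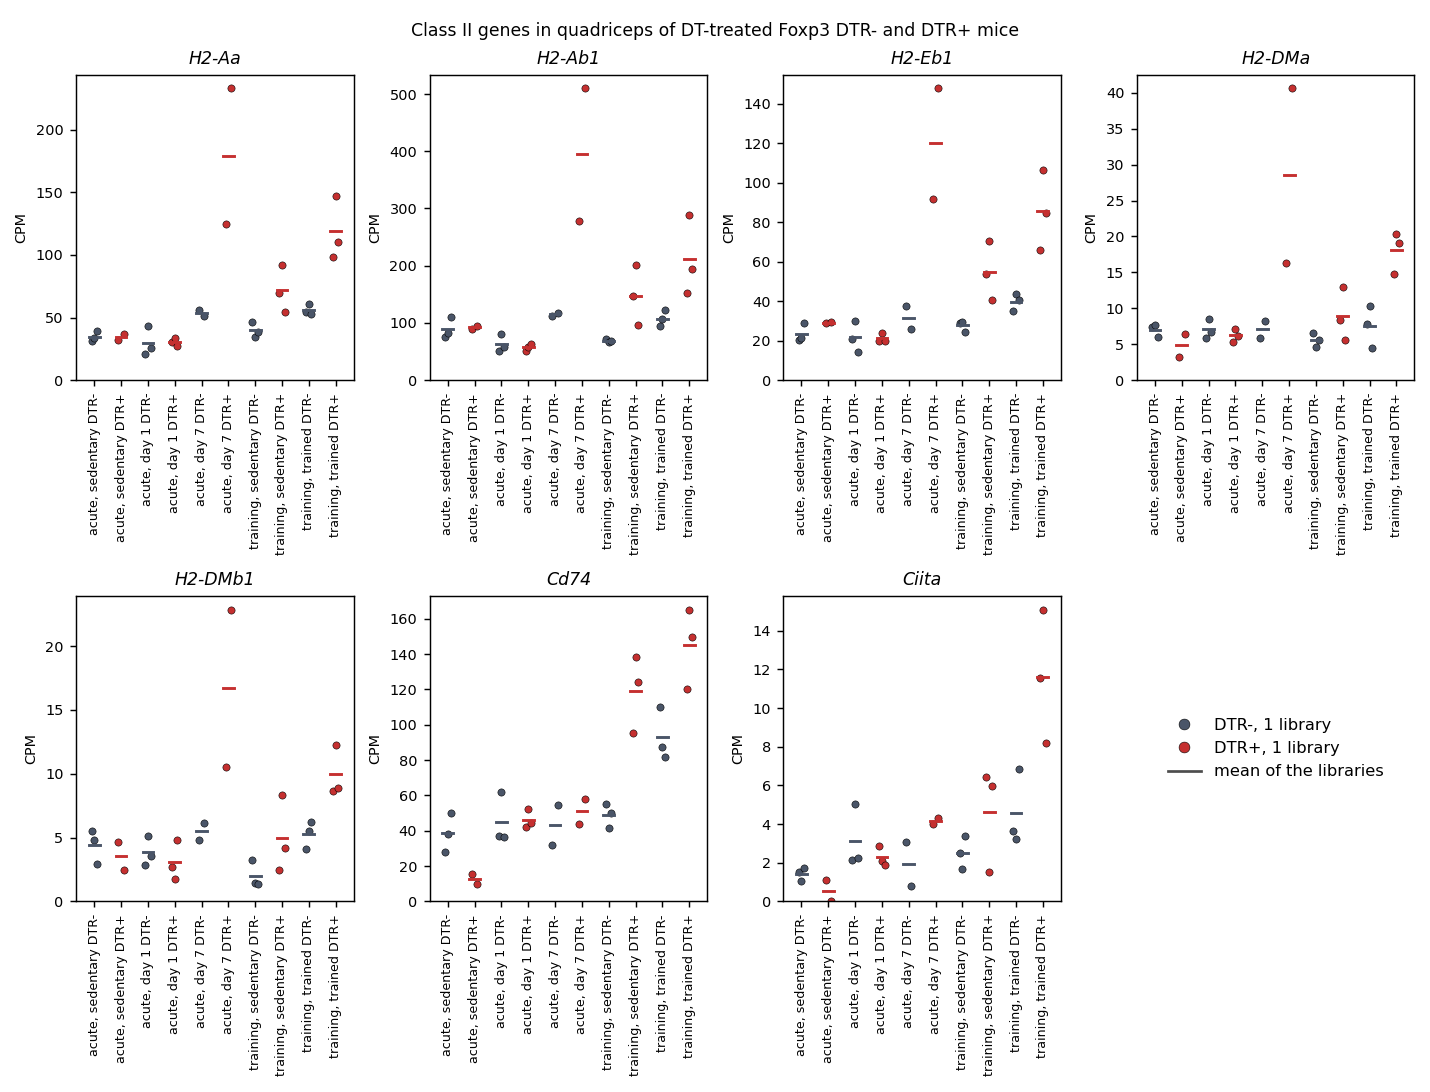
Level of each gene in CPM (y axis) in every quadriceps library of the acute and training experiments, by group (x axis), with DTR- in grey and DTR+ in red. Points are libraries and bars are group means. The group means of the H2 genes are highest in DTR+ mice at day 7 and, next, in trained DTR+ mice, with H2-Ab1 at 279 and 511 CPM at day 7, while Cd74 is lowest in sedentary DTR+ mice of the acute experiment.

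At rest in the acute experiment Cd74 was lower in DTR+ mice. It stood at 15.6 and 9.60 CPM in DTR+ and at 28.0, 38.1 and 49.8 CPM in DTR- mice, a log2 fold change of -1.30 ± 0.31 (adjusted p = 0.00345). The groups did not overlap. H2-Ab1 stood at 90.2 and 95.0 against 75.5, 82.6 and 110 CPM, and H2-Aa at 32.0 and 36.7 against 31.2, 33.3 and 39.4 CPM, with overlap. Ciita stood at 1.11 and 0 against 1.53, 1.05 and 1.73 CPM, which also overlap. Cd74 was the 1 member called lower, where 14.5% of 14245 genes were called lower, a share near that of the members. The call was lost without DTR+ library 3 (adjusted p = 0.0666) and was kept with the length and GC trend removed. Of 12 macrophage and monocyte markers 1 was called higher, Mrc1 (1.10 ± 0.31). Another 2 were called lower, the complement gene C1qa (-1.97 ± 0.33) and Csf1r (-0.81 ± 0.24). Of all 14245 genes 1723 were called higher and 2071 lower, shares near those of the list. The 12 markers summed to 221 and 255 CPM in DTR+ and 210 to 318 CPM in DTR- libraries. Their part in the result was not tested.

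At day 1 the libraries of the genotypes overlapped for each member. H2-Ab1 stood at 50.2, 58.7 and 62.4 CPM in DTR+ and at 50.1, 80.0 and 58.5 CPM in DTR- mice, and Cd74 at 42.2, 52.1 and 44.6 against 37.3, 61.7 and 36.5 CPM. By edgeR 0 of 7 members and 0% of 14245 genes were called, with 0 members and 280 genes at an unadjusted p under 0.05, and DESeq2 called 0.

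Against rest, H2-Ab1 was called lower at day 1 in both genotypes. The day 1 libraries of both genotypes held 21211 to 26596 detected genes and the resting ones 14701 to 16799. Recovery day therefore cannot be told apart from library make-up in these comparisons. In DTR- mice H2-Ab1 was the 1 member called (log2 -0.76 ± 0.20, adjusted p = 0.0144), where 8.24% of 14245 genes were called lower. H2-Aa averaged 30.0 CPM at day 1 and 34.6 CPM at rest and H2-Eb1 21.6 and 23.5 CPM, without a call. The libraries of H2-Ab1 overlapped, and the call was lost with total-count scaling (-0.50, adjusted p = 0.0961) and without DTR- sedentary library 3 or day 1 library 1 or 3. In DTR+ mice at day 1 H2-Eb1 stood at 19.8, 23.6 and 19.8 CPM and H2-Aa at 30.2, 34.0 and 27.4 CPM, so that of the resting values given above only those of H2-Aa overlapped. H2-Ab1 (-1.23 ± 0.22), H2-Eb1 (-1.0 ± 0.27) and H2-Aa (-0.71 ± 0.26) were called lower, where 18.1% of 14245 genes were, and Cd74 was called higher (1.34 ± 0.31), where 24.3% were. With total-count scaling H2-Ab1 (-0.69, adjusted p = 0.0168) and Cd74 (1.88) kept their calls, and H2-Aa (-0.17, adjusted p = 0.631) and H2-Eb1 (-0.46, adjusted p = 0.174) did not. With the length and GC trend removed H2-Aa (-0.47, adjusted p = 0.171) and H2-Eb1 (-0.63, adjusted p = 0.0717) also lost their calls. H2-Aa lost its call as well when any DTR+ library of rest or day 1 was left out (adjusted p from 0.0527 to 0.150), and under the replicate block (0.0727). All genes tested had a median log2 fold change of 0.28 in this comparison. The day 1 response of Cd74 differed between the genotypes by 1.35 ± 0.39 (adjusted p = 0.0225), the 1 member called higher in this test, where 8.8% of 14245 genes were. That call was lost without DTR+ sedentary library 3, DTR- sedentary library 3 or DTR- day 1 library 3 (adjusted p from 0.055 to 0.131).

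The ratio of Cd74 to H2-Ab1 per kilobase varied most within the acute and the aged experiments. It was 0.155 to 0.264 in the 4 acute DTR+ libraries of rest and day 7, 0.435 to 0.710 in the 5 DTR- libraries of those times, and 0.955 to 1.36 in the 6 day 1 libraries. In wild-type libraries it was 1.20 to 2.39, in the training experiment 0.876 to 1.99, and in the antibody experiment 1.09 to 1.28, ranges that overlap. In the 4 aged libraries it ran from 0.422 to 4.33. The groups with the lowest ratios were those with the highest mitochondrial share. The part of library composition in the Cd74 results was not tested beyond the settings named. In the acute experiment the mitochondrial share cannot be told apart from genotype at rest and at day 7. Nor can it be told apart from recovery day between rest and day 1.

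**Figure D3:**
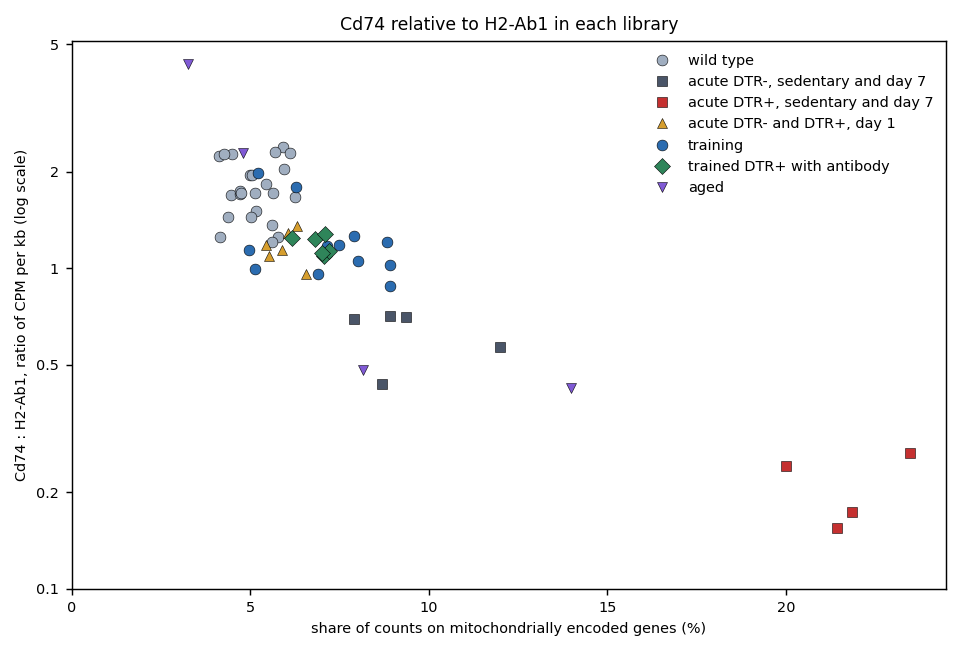
Ratio of Cd74 to H2-Ab1 in CPM per kb (y axis, log scale) against the percentage of counts on mitochondrially encoded genes (x axis), 1 point per library, coloured by experiment. The 4 acute DTR+ libraries of rest and day 7 lie at 20.0% to 23.5% with ratios of 0.155 to 0.264, and the wild-type libraries at the upper left with ratios of 1.20 to 2.39. The 4 aged libraries spread from 0.422 to 4.33.

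In the training experiment the mitochondrial share was 4.98% to 8.93% in all 12 libraries, and class II was again higher without Tregs. After 2 weeks of training H2-Aa stood at 98.3, 147 and 111 CPM in DTR+ libraries and at 54.2, 61.1 and 52.8 CPM in DTR- libraries, a log2 fold change of 1.14 ± 0.23 (edgeR adjusted p = 0.0167). H2-Eb1 stood at 66.0, 106 and 84.5 against 35.1, 43.8 and 40.4 CPM (1.16 ± 0.24, adjusted p = 0.0198). These 2 of 7 members were called higher, where 0.62% of 12579 genes were. The members' median was 1.14 beside -0.0027 for all genes. For each of the 7, every DTR+ library lay above every DTR- library, but the share of all genes separated likewise was not counted. By edgeR 6 members, which are correlated with each other, and 981 of 12579 genes had an unadjusted p under 0.05.

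The other members missed the threshold by edgeR. H2-Ab1 stood at 152, 288 and 194 against 94.1, 106 and 122 CPM (1.03 ± 0.27, adjusted p = 0.0967). H2-DMa stood at 14.8, 20.4 and 19.0 against 7.78, 10.3 and 4.41 CPM (1.34 ± 0.37, adjusted p = 0.115). Ciita, the co-activator, stood at 11.6, 15.1 and 8.21 against 3.64, 3.23 and 6.87 CPM (1.38 ± 0.47, adjusted p = 0.305). Cd74 stood at 120, 165 and 150 against 110, 87.5 and 81.7 CPM (0.70 ± 0.21, adjusted p = 0.173), and H2-DMb1 ran from 8.68 to 12.3 against 4.14 to 6.21 CPM. DESeq2 called 4 members, adding H2-Ab1 and H2-DMa. Both edgeR calls were lost without DTR+ library 2, the highest for these genes (adjusted p = 0.261 and 0.281), and without any of the 3 DTR- libraries (0.0638 to 0.174).

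Beside them Irf1 (2.35 ± 0.30) rose, and all 10 class I genes were called higher, with Nlrc5, the class I counterpart of Ciita, at 3.70 ± 0.54. Ctss was the 1 of 17 tested genes of the wider class II route called (1.43 ± 0.31). Of 12 macrophage and monocyte markers 0 were called and 9 were higher, and they summed to 341 to 462 against 291 to 394 CPM. T and NK cell markers summed to 5.62 to 12.6 against 3.62 to 7.03 CPM. The B cell markers summed to 58.5 to 79.2 against 113 to 141 CPM, and dendritic cell markers to 19.6 to 22.3 against 16.8 to 35.8 CPM, with Flt3 at 0 in all 3 trained DTR+ libraries. Their part in the result was not tested.

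In sedentary mice of this experiment all 7 members were higher on average in DTR+ mice, with a median log2 fold change of 1.07 beside 0.04 for all genes. Of them only Cd74 was called by edgeR. It stood at 95.5, 138 and 124 CPM in DTR+ libraries against 54.9, 41.6 and 50.3 CPM in DTR- libraries, a log2 fold change of 1.34 ± 0.21 (edgeR adjusted p = 0.0150). It was 1 of 7 members called, where 0.0477% of 12579 genes were called higher. This direction is opposite to that of Cd74 at rest in the acute experiment, whose libraries were fitted apart and differed in mitochondrial share. H2-Ab1 stood at 147, 201 and 95.8 against 71.8, 66.3 and 67.5 CPM (1.19 ± 0.28, adjusted p = 0.250), and H2-Eb1 at 53.8, 70.4 and 40.8 against 28.9, 29.6 and 24.4 CPM (1.07 ± 0.25, adjusted p = 0.250). H2-Aa stood at 69.9, 91.7 and 54.5 against 46.8, 34.8 and 38.4 CPM (0.92 ± 0.24, adjusted p = 0.348). The groups overlapped for none of these 4 members, and the share of all genes separated likewise was not counted. The call for Cd74 was lost without any of the DTR- libraries (adjusted p from 0.112 to 0.251) and in a fit of only these groups (0.187). Without DTR+ library 3, the lowest for the H2-A and H2-E genes, 3 members were called. DTR+ library 2, the highest for these genes, stood apart from its partners, with a chi-square per gene of 68.7 and 87.8 against them and of 13.4 between them, a muscle fibre sum of 180700 CPM and 17342 genes detected. Without it the log2 fold changes were 0.58 for H2-Aa, 0.78 for H2-Ab1, 0.73 for H2-Eb1, 0.28 for H2-DMa and 0.58 for H2-DMb1, all uncalled, and Cd74 kept its call (1.10, adjusted p = 0.0341). The 12 macrophage and monocyte markers summed to 326 to 365 CPM in DTR+ and 205 to 232 CPM in DTR- libraries, with 0 called. Their part was not tested.

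Training itself gave no call in either genotype. In DTR- mice the trained libraries of Cd74 (110, 87.5 and 81.7 CPM) lay above all sedentary ones (log2 0.86 ± 0.21, adjusted p = 0.243), as did those of H2-Aa, H2-Eb1, H2-DMb1 and H2-Ab1 (0.60 ± 0.27, adjusted p = 0.952). The share of all genes separated likewise was not counted, and by edgeR 653 of 12579 genes had an unadjusted p under 0.05. The 12 macrophage and monocyte markers summed to 291 to 394 CPM in trained and 205 to 232 CPM in sedentary DTR- libraries, with 0 called, and their part was not tested. By edgeR 0 members were called, where 0.103% of 12579 genes were, with 3 members at an unadjusted p under 0.05 and Cd74 called by DESeq2. In DTR+ mice Ciita was at 11.6, 15.1 and 8.21 CPM after training and at 6.439, 1.502 and 5.953 CPM at rest (1.38 ± 0.48, adjusted p = 0.158), and H2-Aa at 98.3 to 147 against 54.5 to 91.7 CPM (0.65 ± 0.23, adjusted p = 0.180). Again 0 members were called, where 2.21% of 12579 genes were, with 4 at an unadjusted p under 0.05 and 0 by DESeq2. Without sedentary DTR+ library 2, which stood apart as described above, 5 members were called. In the same comparison 7 of 10 class I genes rose, with Tap1 at 2.39 ± 0.40. For the difference between the genotypes' responses 0 members were called, where 0.27% of 12579 genes were, 1 (Cd74, -0.64 ± 0.29, adjusted p = 0.669) had an unadjusted p under 0.05, and DESeq2 called 0.

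**Figure D4:**
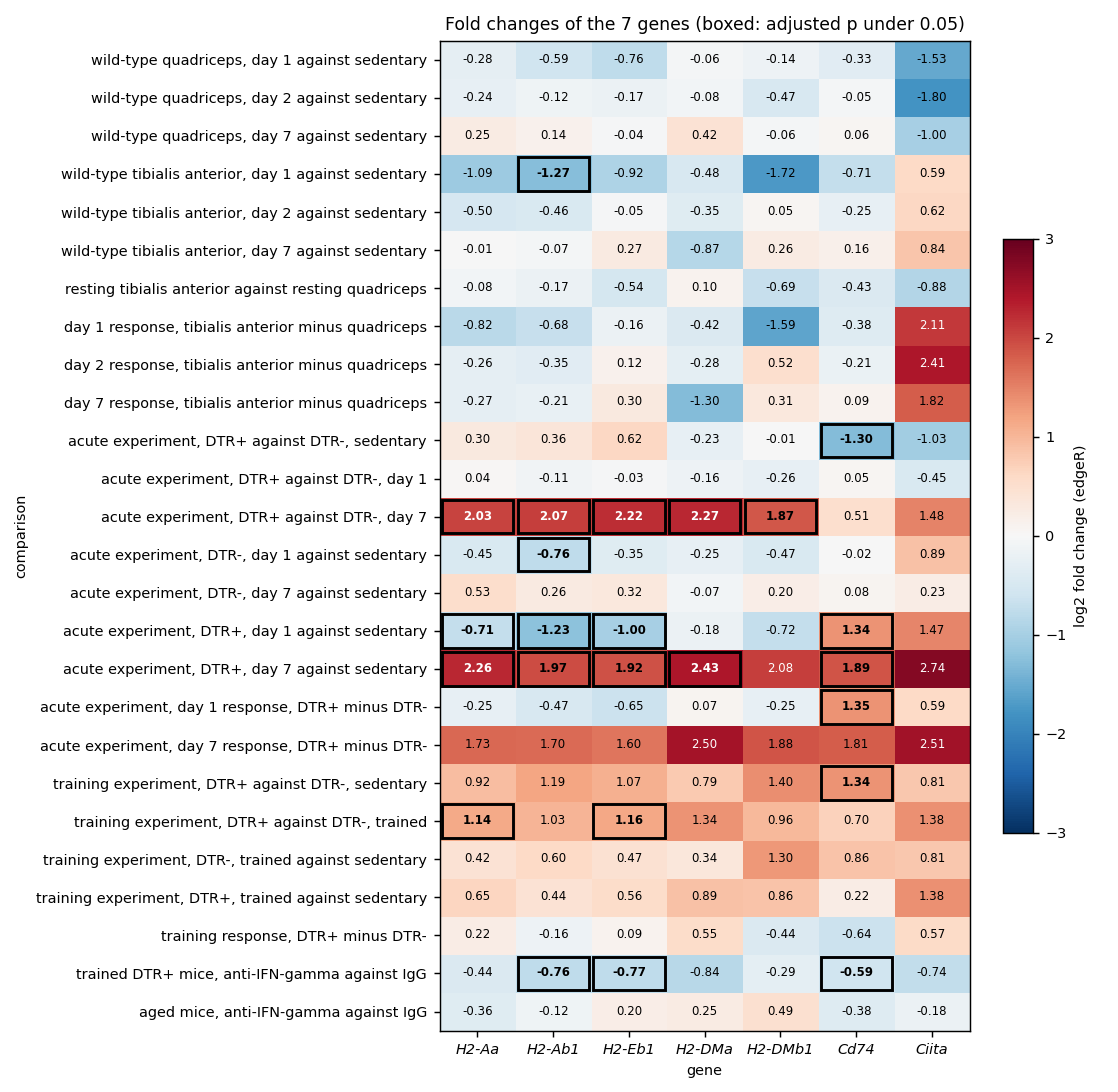
Log2 fold change by edgeR (colour and printed value) of the 7 genes (x axis) in 26 comparisons (y axis), with a box where the adjusted p was under 0.05. The boxes gather in DTR+ mice at day 7, where 5 members passed in each of 2 comparisons, in DTR+ mice at day 1 against rest, where 3 passed lower and 1 higher, and with the antibody, where 3 passed lower.

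Class II transcripts were lower in trained DTR+ mice given the antibody to interferon-gamma. H2-Ab1 stood at 194, 190 and 191 CPM with IgG and at 104, 136 and 101 CPM with anti-IFN-gamma (log2 -0.76 ± 0.12, adjusted p = 0.00263). H2-Eb1 stood at 78.9, 74.7 and 69.4 against 36.5, 55.2 and 39.6 CPM (-0.77 ± 0.15, adjusted p = 0.0157), and Cd74 at 139, 141 and 139 against 83.7, 110 and 84.5 CPM (-0.59 ± 0.12, adjusted p = 0.0178). None of these groups overlapped, and antibody library 2 was the highest of its group for each. These 3 of 7 members were called lower, where 0.715% of 11742 genes were.

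All 7 members were lower on average, with a median of -0.74 beside -0.0020 for all genes. H2-DMa stood at 12.8, 13.6 and 13.5 against 7.06, 9.08 and 6.10 CPM without overlap (-0.84 ± 0.23, adjusted p = 0.113). Ciita stood at 8.15, 12.7 and 5.98 against 4.54, 5.95 and 5.42 CPM (-0.74 ± 0.31, adjusted p = 0.407), with the highest antibody library just below the lowest IgG library. H2-Aa, the alpha chain paired with H2-Ab1, stood at 93.6, 90.7 and 79.9 against 57.3, 86.1 and 51.7 CPM, which overlap (-0.44 ± 0.16, adjusted p = 0.304). Without antibody library 2 it was called (-0.69, adjusted p = 0.0402).

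H2-Ab1 kept its call in each leave-one-out fit. H2-Eb1 lost its own without IgG library 1 or 2 or antibody library 1 or 3 (adjusted p from 0.0523 to 0.0985). Cd74 lost its own without IgG library 2 or antibody library 1 or 3 (0.0836 to 0.114). In the same mice all 10 class I genes fell, Tap1 (the peptide transporter) by 2.68 ± 0.18 and H2-K1 by 1.12 ± 0.10 on the log2 scale, and Irf1 (-2.18 ± 0.27) fell. Of 14 tested genes of the wider class II route 0 were called. The macrophage and monocyte markers summed to 384 to 420 CPM with IgG and 226 to 348 CPM with the antibody, 10 of 11 tested were lower and 1, C1qb, was called (-0.80 ± 0.18). Dendritic cell markers summed to 19.3 to 21.3 and 18.3 to 21.5 CPM, a list in which Zbtb46 has by far the largest median over all libraries (12.4 CPM). The part of these cells was not tested.

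**Figure D5:**
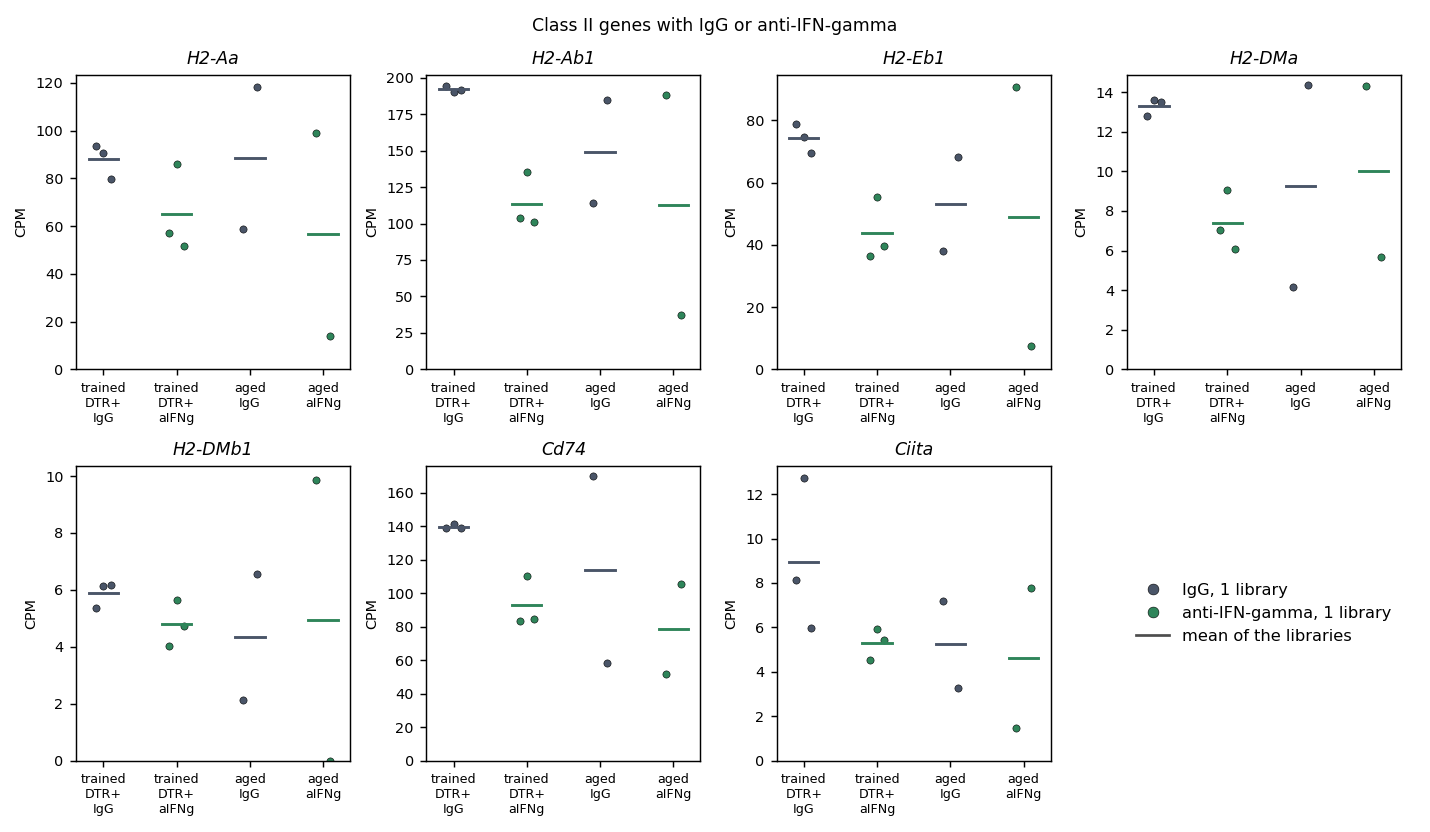
Level of each gene in CPM (y axis) in every library given IgG (grey) or anti-IFN-gamma (green), in trained DTR+ mice and in aged mice (x axis). Points are libraries and bars are means of 3 or 2. In trained mice H2-Ab1, H2-Eb1, H2-DMa, Cd74 and, narrowly, Ciita separate, and in aged mice the 2 libraries of a group lie far apart.

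In aged resting mice the libraries of a group differed more than the groups. H2-Ab1 stood at 114 and 185 CPM with IgG and at 188 and 37.2 CPM with anti-IFN-gamma, and H2-Aa at 58.8 and 118 against 99.2 and 14.1 CPM. Cd74 ran the other way in the same libraries, at 170 and 58.1 CPM with IgG and at 51.8 and 105 CPM with the antibody, as did Ciita at 7.21 and 3.28 against 1.45 and 7.78 CPM. The ratio of Cd74 to H2-Ab1 per kilobase was thus 2.29 and 0.481 with IgG and 0.422 and 4.33 with the antibody. Antibody library 3, the one low in H2 genes, had no H2-DMb1 count (which allows up to 0.396 CPM) and a muscle fibre sum of 68670 CPM beside 118800 to 197100 CPM in the other 3. By edgeR 0 members and 0% of 12531 genes were called, with 0 members and 64 genes at an unadjusted p under 0.05, and DESeq2 called 0.

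Across all libraries, the members did not follow each other equally. After centring log2 CPM on each experiment's mean, H2-Aa, H2-Ab1 and H2-Eb1 correlated pairwise at Pearson r of 0.926 to 0.932 over 61 libraries, and H2-DMb1 with them at 0.780 to 0.808. Cd74 correlated with the 3 chains at only 0.358 to 0.396 and with Ciita at 0.572, and Ciita with the 3 chains at 0.190 to 0.229. These libraries share groups and depth, so the values are descriptions.

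The genes most like the mean of H2-Aa, H2-Ab1, H2-Eb1 and Cd74, among 8897 genes with a mean of at least 5 CPM, were B2m (r = 0.849), Psmb8 (0.812), Lyz2 (0.795), Ifitm3 (0.792), H2-K1 (0.788), Psme1 (0.786), Igtp (0.785) and H2-D1 (0.784). B2m, H2-K1 and H2-D1 are chains of class I, Psmb8 and Psme1 belong to the immunoproteasome, Ifitm3 and Igtp are induced by interferon, and Lyz2 is a lysozyme of macrophages. Reads of class I genes and of Igtp can be shared with close copies or overlapping genes. Cd74, although part of the mean, ranked only at place 78 with r = 0.582, over libraries that include the same splits.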

How the data were processed

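The deposited table holds raw gene counts of 61 whole-muscle libraries. The authors aligned with STAR 2.7.3a and counted with featureCounts on mm10, per the submitters' processing notes, and RNA was made into libraries by a low-input ImmGen protocol, per the labels. CPM were computed from library totals. A floor of 3 counts equals 0.208 to 0.893 CPM, which covers counting error only.

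Each experiment was fitted with edgeR 4.0.16 (R 4.3.3; genes kept by a minimum count of 10 and total of 15, TMM scaling, quasi-likelihood test), with Benjamini-Hochberg adjustment over all genes and a threshold of 0.05. Wild-type muscles were fitted apart except where compared. All 7 members passed the filter everywhere. A fold change is given for a member with an unadjusted p under 0.05. Overlap of libraries was examined for the members only, so no share of all genes stands beside it. The scripts were tested on simulated data. Alternatives used DESeq2 1.42.0, other scalings, filters, blocks and left-out libraries.

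Of the pathway lists up to 4 called genes with the smallest p were eligible for naming, and 8 genes most alike were named. Members and lists were chosen with earlier results of these data known. Wild-type muscles with 1 ID were taken as 1 animal (correlation of deviations -0.0329 to 0.0533). No 2 libraries were identical. Some listed genes are not reported here.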

Additional observations from a re-analysis of the deposited data

Results flagged for a closer look

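The day 1 response of Cd74 in the acute experiment differed between DTR+ and DTR- mice by 1.35 ± 0.39 on the log2 scale (edgeR adjusted p = 0.0225), by a test of the difference itself. Cd74 went from 15.6 and 9.60 CPM at rest to 42.2, 52.1 and 44.6 CPM at day 1 in DTR+ mice, and from 28.0, 38.1 and 49.8 to 37.3, 61.7 and 36.5 CPM in DTR- mice. The mitochondrial share of counts went from 21.4% to 23.5% at rest to 5.53% to 6.31% at day 1 in the DTR+ libraries, and its part in the difference was not tested. With total-count scaling the difference was 1.65.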

How the results depend on the processing

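The 66 fold changes with an unadjusted p under 0.05 in the main fit had 903 alternative values, and all kept their direction. They were chosen by that p and refitted on the same libraries or a part of them, so a kept direction says little. The alternatives kept their side of the threshold in 801, which includes uncalled fold changes that stayed uncalled, lost the call in 59 and gained it in 43. The number of called members moved by over 1.5 times as follows. In tibialis anterior at day 1 (1 member) it was 2 with DESeq2, which gave no adjusted p for 5 members, 3 without the low-count filter, and 0 with RLE scaling, with the length and GC trend removed or with only the compared groups. With that trend removed, with or without the replicate block, it was 2 for acute DTR+ against DTR- at rest (1) and 2 for acute DTR+ day 1 against rest (4). Total-count scaling and leaving out mitochondrially encoded genes were chosen after seeing the data. Total-count scaling gave 2 for acute DTR+ at day 1 and 0 for DTR- at day 1 (1). Only the compared groups gave 0 for acute DTR+ day 7 against rest (5). The day 7 response by genotype (0) gave 5 with DESeq2 and 5 without the filter. Trained DTR+ against DTR- (2) gave 4 with DESeq2, without the filter and with only the compared groups. The sedentary comparison of that experiment (1) gave 3 with DESeq2, 3 without the filter and 0 with only the compared groups. Training in DTR- mice (0) gave 1 with DESeq2 and 1 with only the compared groups. With 1 library left out the count ran from 0 to 1 for tibialis anterior at day 1 and for the day 1 response by genotype, 0 to 2 for acute genotype at rest, 0 to 2 for DTR- day 1, 0 to 5 for the day 7 response by genotype, 0 to 3 for sedentary and 0 to 2 for trained genotype comparisons, 0 to 5 for training in DTR+ mice, and 1 to 4 for the antibody; a lone library left in a group was assumed to vary like the others. Animals as a block across wild-type muscles changed no call. Elsewhere equal replicate numbers did not pair the libraries (correlations up to 0.0999). The replicate block gave 3 calls for acute DTR+ at day 1, 5 for genotype at day 7 and 3 for the antibody. In aged mice the numbers correlated at -0.652, and the crossed pairing gave 0 calls. Between 6 and 8 of the 8 most alike genes were shared with Spearman correlation or a smaller prior count. Over all genes, calls numbered 7, 86 with DESeq2 and 143 without the filter in tibialis anterior at day 1, and 112, 196 and 260 for trained DTR+ against DTR- mice, of which 69.6%, 52.6% and 43.1% were higher. They numbered 6, 28 and 47 for the sedentary comparison, 144, 360 and 367 for acute DTR+ at day 7 against rest, and 158, 189 and 375 for the antibody.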
